A study of Rattus norvegicus with 12 samples.

Results

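The genes described here encode 3 growth factor systems of the vessel wall: hepatocyte growth factor (Hgf) and its receptor Met, the platelet-derived growth factors Pdgfa, Pdgfb, Pdgfc and Pdgfd with their receptors Pdgfra and Pdgfrb, and fibroblast growth factor 2 (Fgf2) with its receptor Fgfr1. They were taken by symbol, and all 10 were found among the 14324 genes measured, each with 1 probe set. None of the 10 lay among the 33.3% of genes of lowest mean signal. Expression was measured in rings of aorta from male Fisher 344 rats aged 1 to 2 months, which were cultured in serum-free EBM medium inside a gel of collagen or of fibrin. Some cultures received 10 ng/ml recombinant rat TNF-alpha, an inflammatory cytokine, and the others were left untreated. RNA came from day 2, and 4 to 6 ring cultures were pooled per sample. With 3 arrays per condition there were 12 in 4 groups, named here by gel and treatment (for instance collagen TNF, or fibrin control for untreated fibrin). The labels call the replicates biological and say no more of their origin. A ring holds every cell type of the aortic wall, so fewer cells of a type and less RNA per cell cannot be told apart.

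HGF is secreted mainly by mesenchymal cells as an inactive precursor, is cut to its active form by proteases outside the cell, and drives motility and growth of cells that carry the receptor tyrosine kinase MET, endothelial cells among them. PDGF chains form dimers. PDGF-A and PDGF-C act mainly through the alpha receptor, which marks fibroblasts, and PDGF-B and PDGF-D through the beta receptor of smooth muscle cells and pericytes; endothelial PDGF-B is the signal that draws such mural cells to new vessels. FGF2 is a heparin-binding factor without a classical secretion signal that acts on endothelium, smooth muscle and fibroblasts through FGFR1 and related receptors.

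All values are log2 expression levels as deposited, errors of levels are standard deviations with n = 3, and errors of differences are standard errors of a limma fit over all genes. A gene is said to have passed, risen or fallen where its Benjamini-Hochberg adjusted p over all genes was under 0.05. Arrays of a group correlated across genes at 0.996 to 0.997 and arrays of different groups at 0.980 to 0.996. These ranges meet, so they cannot show whether an array stood apart. The 7 smooth muscle, 8 fibroblast, 7 pericyte and 9 macrophage markers measured all lay above the dimmest 33.3% of genes, as did 4 of 5 endothelial markers (not Emcn). Acta2, Pecam1, Kdr and Vwf are not analysed here. All 7 neutrophil markers lay within it.

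**Figure D1:**
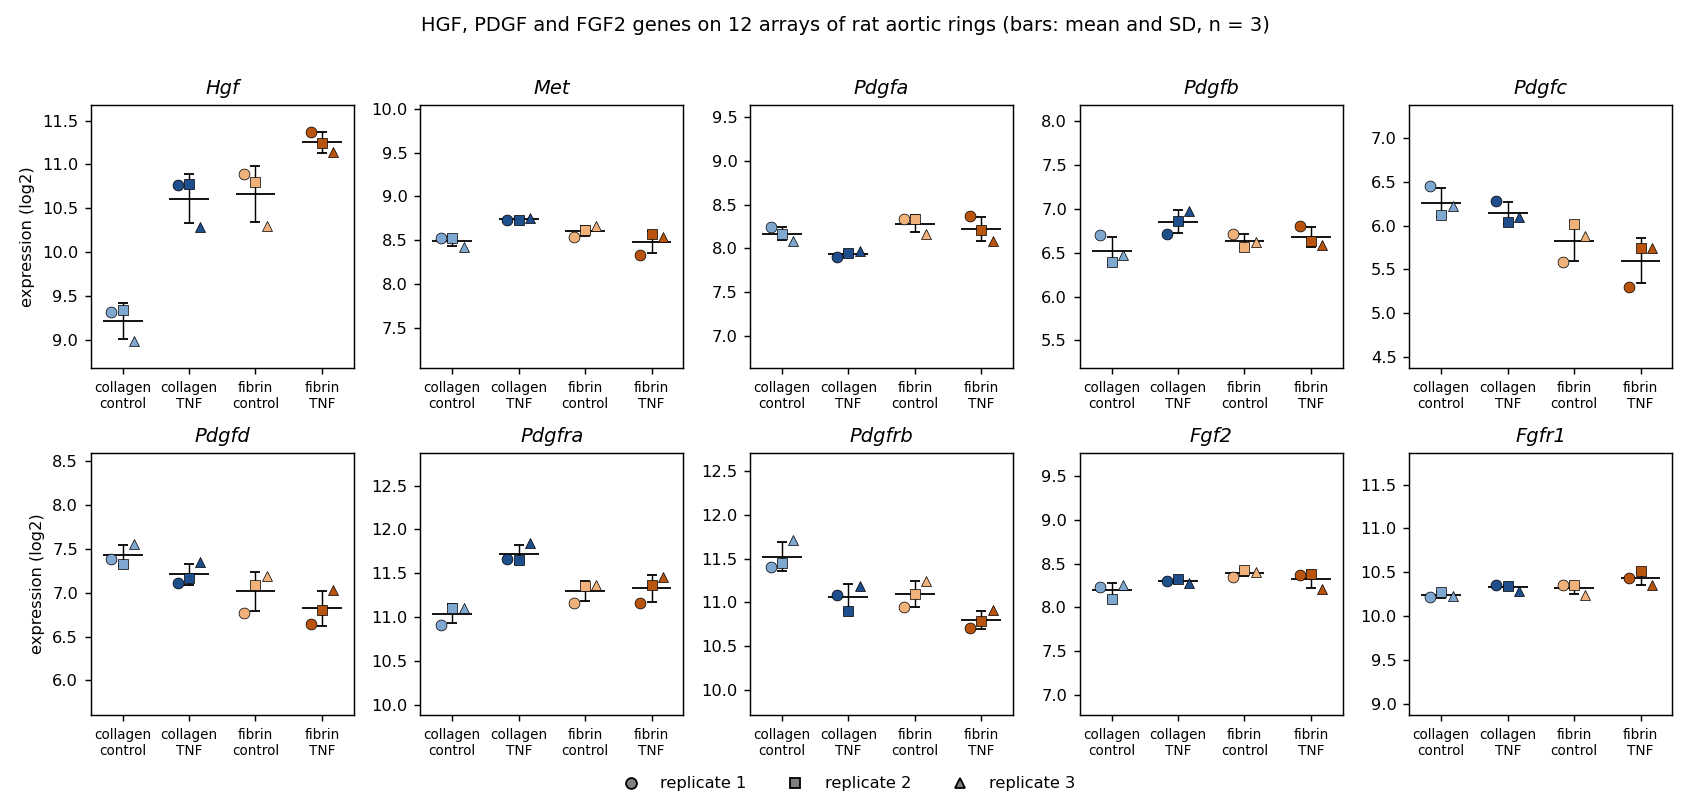
Expression (log2) of the 10 genes on 12 arrays, by matrix and TNF. Symbols mark the replicate number, horizontal lines the group mean and vertical bars the SD (n = 3), and every panel spans 3 log2 units. Hgf moves over 2.03 between its lowest and highest group mean, against 0.19 for Fgfr1 and 0.20 for Fgf2.

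Hgf varied most among the 10 genes. Its level was higher than in untreated collagen both with TNF in collagen and in untreated fibrin. On the collagen control arrays it lay at 9.32, 9.34 and 8.98, and on the collagen TNF arrays at 10.76, 10.78 and 10.29. On the fibrin control arrays it lay at 10.89, 10.80 and 10.30, and on the fibrin TNF arrays at 11.37, 11.24 and 11.14. Every collagen control array was thus below all others and every fibrin TNF array above all others, while collagen TNF and fibrin control overlapped.

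TNF raised Hgf in collagen 2.63-fold (log2 difference 1.39 ± 0.17, adjusted p = 0.000222). Untreated fibrin exceeded untreated collagen by 2.73-fold (1.45 ± 0.17, adjusted p = 8.59e-05), a comparison that shares its collagen control arrays with the first. Both calls were kept in 21 of 21 alternative fits. With TNF in both gels, Hgf was still higher in fibrin, by 0.64 ± 0.17 (adjusted p = 0.0337). That call was lost without collagen TNF replicate 3 (difference 0.48, adjusted p = 0.137) and without fibrin TNF replicate 1, 2 or 3 (0.58, 0.64 and 0.69). It was also lost when all probe sets were tested (adjusted p = 0.0557). Over all alternatives the adjusted p ran from 0.00101 to 0.137. The lowest came with a replicate block across matrices, between which replicate numbers share no stated origin.

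In fibrin, Hgf did not pass with TNF. The TNF arrays were higher by 0.58 ± 0.17 (adjusted p = 0.0887), with no overlap between the groups. No label states that replicate numbers pair the samples. They were taken to do so within a matrix from weak correlations among these same arrays (0.13 to 0.25). Differences between arrays of the same number were 0.47, 0.44 and 0.84 in fibrin, against 1.43, 1.44 and 1.31 in collagen. When those pairs entered the limma fit as a replicate block, the adjusted p in fibrin was 0.0124. The TNF effect on Hgf was smaller in fibrin by 0.81 ± 0.24 on the log2 scale, with adjusted p = 0.140 unpaired and 0.0260 with the block. It also passed without fibrin control replicate 3 (-0.99, adjusted p = 0.0437). The effects start from different control levels, 9.22 in collagen and 10.66 in fibrin, and end at 10.61 and 11.25.

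The promoter of Hgf is shown because Hgf is the gene of the set that changed most, and that of Pdgfra because it is the receptor gene that rose with TNF. RefSeq's table of windows from 250 bases before to 50 bases after each gene's start (build GRCr8) held 8 of the 10 genes. The Hgf window is chr4:19700418-19700717 on the minus strand and the Pdgfra window chr14:33408467-33408766 on the minus strand, both written 5′ to 3′ along the gene. Capitals mark matches, on either strand, to 6 patterns: the box TATAAA bound by the TATA-binding protein, the GC box with letters GGGCGG, the AP-1 pattern with any middle base, TGANTCA, the GAS pattern bound by STAT proteins, TTCNNNGAA, a form of the C/EBP site, TTNNGNAAT, and the NF-kB consensus.
Hgf: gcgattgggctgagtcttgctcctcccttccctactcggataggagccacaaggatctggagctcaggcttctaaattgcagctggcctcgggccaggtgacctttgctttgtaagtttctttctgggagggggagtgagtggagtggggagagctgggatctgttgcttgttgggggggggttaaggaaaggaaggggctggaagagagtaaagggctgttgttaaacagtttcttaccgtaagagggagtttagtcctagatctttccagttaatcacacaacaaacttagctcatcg
Pdgfra: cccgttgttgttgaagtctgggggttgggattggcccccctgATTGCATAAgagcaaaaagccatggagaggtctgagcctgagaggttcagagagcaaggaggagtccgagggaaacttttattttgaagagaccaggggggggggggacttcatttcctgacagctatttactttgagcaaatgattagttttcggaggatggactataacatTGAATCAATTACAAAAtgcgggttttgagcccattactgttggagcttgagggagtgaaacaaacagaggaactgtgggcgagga

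The Hgf window held 0 matches to these 6 patterns. The Pdgfra window held 1 AP-1 pattern at position -35, directly followed by a C/EBP pattern at -28, and another C/EBP pattern at -208, counting the start base as 1. Of 33469 promoter windows of the same length, 7.33% held the AP-1 pattern and 12.3% the C/EBP pattern. The NF-kB consensus was present in 7.51% of all windows and in 1 of the 8 windows of these genes, that of Pdgfb. A match describes letters only, and the absence of one says nothing about a factor.

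Met, the HGF receptor, moved little and not in parallel with its ligand. It lay at 8.52, 8.52 and 8.42 in collagen control, 8.73, 8.73 and 8.75 in collagen TNF, 8.54, 8.61 and 8.66 in fibrin control, and 8.33, 8.57 and 8.53 in fibrin TNF. The collagen TNF arrays were the highest of the 12. The TNF effect was 0.25 ± 0.07 in collagen (adjusted p = 0.0705) and -0.13 ± 0.07 in fibrin (adjusted p = 0.459), and neither passed. That in collagen was called in 4 of 21 alternatives, with adjusted p from 0.0319 to 0.218 over all of them.

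With TNF, Met was 1.20-fold lower in fibrin than in collagen (log2 difference -0.26 ± 0.07, adjusted p = 0.0484). This call stood close to the threshold: it was kept in 6 of 21 alternatives, and its adjusted p reached 0.158 without fibrin TNF replicate 1, where the difference was -0.19. The TNF effect differed between the matrices by -0.37 ± 0.10 (95% interval -0.60 to -0.15), which did not pass over all genes (adjusted p = 0.121).

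Counts of passing genes are read against the shares of all genes that passed in the same comparison, which for TNF in collagen were 3.27% higher and 3.10% lower. Of 15 other genes of HGF activation, inhibition and binding, TNF in collagen raised 2 and lowered 0, namely Plat, the tissue plasminogen activator (0.70 ± 0.11, adjusted p = 0.00142), and Cd44, a hyaluronan receptor that also binds HGF (0.38 ± 0.07, adjusted p = 0.00423). In fibrin, where 1.65% of all genes rose and 1.47% fell, it raised 1, Cd44 (0.44 ± 0.07), and lowered 0. Untreated fibrin against untreated collagen gave 3 higher and 1 lower, against 5.35% and 5.19% of all genes. The higher were Plat (0.48), Cd44 (0.33) and Mst1r (0.45, kept in 10 of 21 alternatives). Mst1r and Mst1 are in the list as a related receptor and ligand pair, not as partners of HGF itself. The lower was the membrane protease St14, known as matriptase (-0.60 ± 0.09, adjusted p = 0.000725). With TNF in both gels 1 was higher, Cd44 (0.39), and 1 lower, St14 (-0.42), against 4.55% and 3.64%. Plau, the urokinase gene, differed by 0.42 ± 0.15 with TNF in collagen and did not pass (adjusted p = 0.123).

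The PDGF receptors moved in opposite directions when TNF was added in collagen. Pdgfra, the alpha receptor, lay at 10.91, 11.10 and 11.10 in collagen control and at 11.66, 11.65 and 11.84 in collagen TNF, and rose 1.60-fold (log2 difference 0.68 ± 0.10, adjusted p = 0.000843). Pdgfrb, the beta receptor, lay at 11.41, 11.45 and 11.71 in collagen control and at 11.09, 10.90 and 11.19 in collagen TNF, and fell 1.38-fold (-0.46 ± 0.11, adjusted p = 0.0206). The groups overlapped for neither gene. The Pdgfra call was kept in 21 of 21 alternatives. That of Pdgfrb was lost without collagen control replicate 3 (adjusted p = 0.0924) and without collagen TNF replicate 1 (0.0556) or 2 (0.0953), and the difference ranged from -0.53 to -0.37 over the alternatives.

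**Figure D2:**
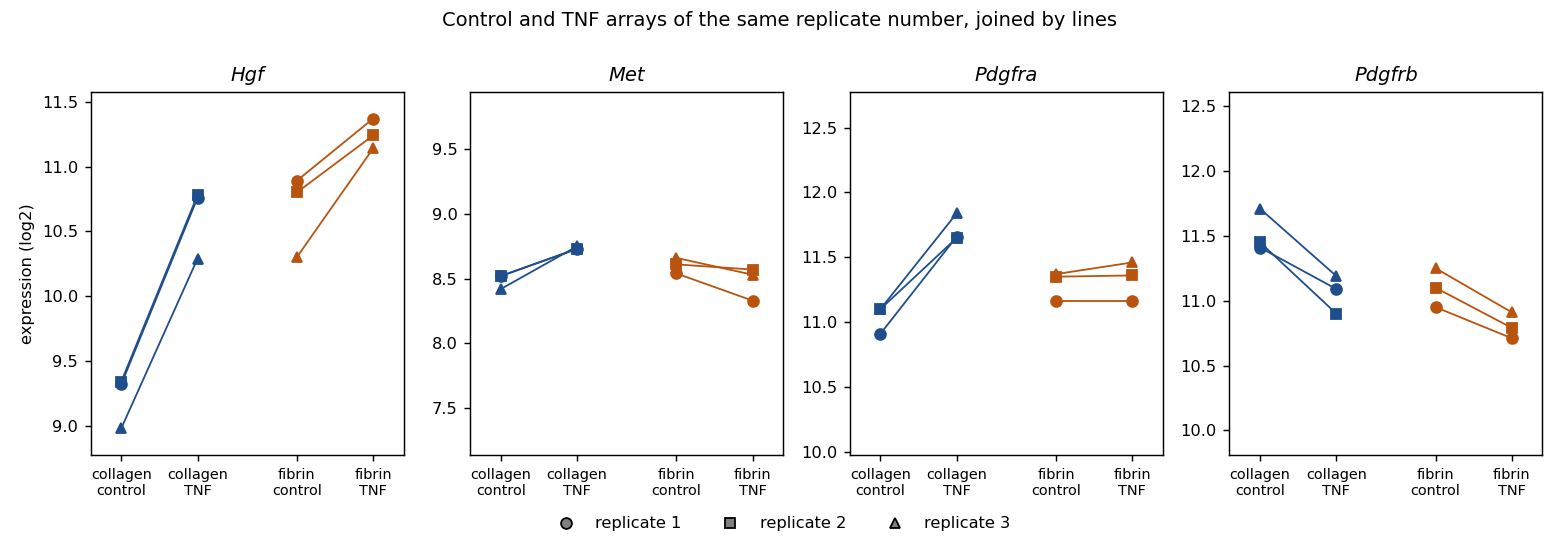
Expression (log2) of Hgf, Met, Pdgfra and Pdgfrb, with the control and TNF arrays of the same replicate number joined by lines (blue, collagen; orange, fibrin). Every panel spans 2.8 log2 units. Pdgfra rises by 0.55 to 0.75 in the 3 collagen pairs and differs by -0.01 to 0.08 in the 3 fibrin pairs, while Pdgfrb is lower with TNF in all 6 pairs.

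In fibrin the alpha receptor showed no such rise. Pdgfra lay at 11.16, 11.35 and 11.37 on the control arrays and at 11.16, 11.36 and 11.46 on the TNF arrays, a difference of 0.03 ± 0.10 (95% interval -0.18 to 0.24, adjusted p = 0.925). The test of the difference of TNF effects passed for Pdgfra (-0.65 ± 0.14, adjusted p = 0.0377) and, without the replicate block, for no other of the 10 genes; with the block Hgf passed too, as given above. In the unblocked fit 0.370% of all genes passed upward and 0.866% downward. The Pdgfra call held in 10 of 20 alternatives. It was lost when all probe sets were tested (adjusted p = 0.0723) and in 9 of 12 fits with an array left out, with adjusted p up to 0.102, while the difference itself stayed between -0.56 and -0.71.

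Pdgfrb lay at 10.95, 11.10 and 11.25 in fibrin control and at 10.71, 10.79 and 10.91 in fibrin TNF. The TNF effect there was -0.30 ± 0.11 (adjusted p = 0.184) and did not pass. Its TNF effects in the 2 matrices differed by 0.16 (95% interval -0.16 to 0.49, adjusted p = 0.715). Between untreated gels Pdgfrb was 1.34-fold lower in fibrin (-0.42 ± 0.11, adjusted p = 0.0225), again against the collagen control arrays of the TNF comparison. That call was lost without collagen control replicate 3 (-0.33, adjusted p = 0.0933), without fibrin control replicate 1 or 2 (-0.35 and -0.42), and when only the arrays compared were fitted (adjusted p = 0.0513). Pdgfra differed between untreated gels by 0.26 ± 0.10 (adjusted p = 0.116), and with TNF it was lower in fibrin (-0.39 ± 0.10, adjusted p = 0.0257), a call lost without collagen TNF replicate 1 (adjusted p = 0.0511) or 3 (0.114), without fibrin TNF replicate 1 (0.102), and with only those groups fitted (0.0561).

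Within each array, the level of Pdgfra minus that of Pdgfrb shows the shift between the receptors, although its zero has no meaning across probe sets. It was -0.50, -0.35 and -0.60 in collagen control and 0.57, 0.74 and 0.65 in collagen TNF. In fibrin it was 0.21, 0.24 and 0.13 without TNF and 0.45, 0.57 and 0.55 with it. Its means were -0.48 ± 0.13, 0.66 ± 0.09, 0.20 ± 0.06 and 0.52 ± 0.07, so that collagen control lay below every other array and fibrin control below every TNF array. This shift was formed after the values of the receptors had been seen and was not tested.

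Markers of mural cells and fibroblasts were read beside the receptors, and their part in the receptor values was not tested. Of 7 smooth muscle markers, 0 rose and 3 fell with TNF in collagen (median -0.43), against 3.27% and 3.10% of all genes. These were Tagln (-0.83), Lmod1 (-0.60) and Des (-0.57), and with the replicate block Myh11 passed as well (-0.43, adjusted p = 0.0187). Between the untreated gels 0 were higher and 4 lower in fibrin (median -0.46), against 5.35% and 5.19%. The log2 of their summed level ran from 11.68 to 12.03 in collagen control, 11.33 to 11.48 in collagen TNF, 11.22 to 11.61 in fibrin control and 11.14 to 11.34 in fibrin TNF, so that collagen control was the highest group, as for Pdgfrb. Of 7 pericyte markers 0 passed in either of those comparisons (with the replicate block Kcnj8 was called in collagen, at 0.67 and adjusted p = 0.0270), and Rgs5 differed by 0.25 with TNF in collagen. In fibrin, against 1.47% of all genes, TNF lowered 2, Notch3 and Anpep (-0.58 and -0.66, kept in 16 and 17 of 21 alternatives). With TNF in both gels the same 2 were lower in fibrin (-0.54 and -0.74), against 3.64%. For the difference of TNF effects 0 were higher and 1 lower, against 0.370% and 0.866%. This was Anpep (-0.92, adjusted p = 0.0269, kept in 13 of 20 alternatives), and the median of the 7 was -0.52. There 0 smooth muscle and 0 fibroblast markers passed. The summed level of the pericyte markers ran from 12.02 to 12.26, 12.37 to 12.53, 12.34 to 12.60 and 11.99 to 12.33 in the same order of groups.

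Of 8 fibroblast markers 1 rose and 2 fell with TNF in collagen, against 3.27% and 3.10% of all genes. Pdpn rose by 0.62, and Cygb (-0.97) and Dpt (-0.83) fell, while Col1a1 and Dcn differed by -0.09 and -0.05. In fibrin 0 rose and 2 fell with TNF, against 1.65% and 1.47%: Cygb (-0.71, kept in 19 of 21 alternatives) and Dpt (-0.36, kept in 8). With the replicate block Dpt was lost (adjusted p = 0.0618), while Col1a1 (-0.39, adjusted p = 0.0392) and Col1a2 (-0.30, 0.0484) were called. The summed level of the list ran from 15.22 to 15.32 in collagen control and 15.16 to 15.28 in collagen TNF, which overlap, and from 15.23 to 15.27 in fibrin control and 14.97 to 15.10 in fibrin TNF. Macrophage markers moved with the gel: 8 of 9 were lower in untreated fibrin, against 5.19% of all genes, with a summed level of 12.50 to 12.73 in collagen control and 11.59 to 11.90 in fibrin control, while Hgf was higher there. With TNF in collagen 0 of the 9 passed, and with the replicate block Folr2 (-0.34, adjusted p = 0.0188) and Lyve1 (-0.52, 0.0286) were called.

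With TNF in collagen the PDGF ligands changed less than the receptors, and none of the 4 passed for TNF against control in either gel in the limma fit. Pdgfa, the chain that signals through the alpha receptor, lay at 8.24, 8.17 and 8.09 in collagen control and at 7.90, 7.95 and 7.97 in collagen TNF, a difference of -0.23 ± 0.08 (adjusted p = 0.142) with no overlap. In fibrin it lay at 8.34, 8.34 and 8.17 without TNF and at 8.37, 8.21 and 8.09 with TNF, which overlap. With TNF it was higher in fibrin than in collagen by 0.28 ± 0.08 (adjusted p = 0.0523), just outside the threshold, and it passed in 5 of 21 alternatives.

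Pdgfb, the mural cell attractant, lay at 6.70, 6.39 and 6.47 in collagen control and at 6.72, 6.86 and 6.98 in collagen TNF. TNF arrays were higher by 0.34 ± 0.10 (adjusted p = 0.0650), with the highest control array at 6.70 and the lowest TNF array at 6.72. Same-numbered arrays differed by 0.01, 0.48 and 0.52. The difference was called in 3 of 21 alternatives, with adjusted p from 0.0253 to 0.227 over all of them. In fibrin Pdgfb ranged from 6.57 to 6.72 without TNF and from 6.59 to 6.81 with it. All 4 groups overlapped with a neighbour in the order of their means.

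Pdgfc and Pdgfd, whose products are secreted in latent form and need proteolysis to bind a receptor, had lower values on every fibrin array than on any collagen array of the same treatment, and only Pdgfc with TNF passed the test. Pdgfc lay at 6.45, 6.12 and 6.22 in collagen control and at 5.58, 6.02 and 5.88 in fibrin control, a difference of -0.44 ± 0.14 (adjusted p = 0.0700). With TNF it lay at 6.28, 6.04 and 6.10 in collagen and at 5.30, 5.75 and 5.74 in fibrin, 1.46-fold lower in fibrin (-0.54 ± 0.14, adjusted p = 0.0335). The 6 fibrin arrays were below all 6 collagen arrays by a narrow margin (6.02 against 6.04). The share of all genes separated in this way was not counted. The call with TNF was lost in 6 of 21 alternatives, among them the fits without collagen TNF replicate 1, 2 or 3 (adjusted p = 0.118, 0.0573 and 0.0814) and without fibrin TNF replicate 1 (0.127, difference -0.39).

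Pdgfd lay at 7.39, 7.33 and 7.56 in collagen control and at 6.77, 7.09 and 7.19 in fibrin control, lower in fibrin by 0.41 on the log2 scale (-0.41 ± 0.12, adjusted p = 0.0510). With TNF it lay at 7.11, 7.17 and 7.35 in collagen and at 6.64, 6.80 and 7.03 in fibrin (-0.38 ± 0.12, adjusted p = 0.0810). Neither difference passed in the limma fit, although the arrays of the gels did not overlap in either; alternatives called the untreated difference in 7 of 21 fits and that with TNF in 4. TNF differences were -0.22 ± 0.12 in collagen and -0.19 ± 0.12 in fibrin, and all 6 same-numbered pairs were lower with TNF, by 0.13 to 0.28.

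Of 10 measured genes of PDGF processing and binding, TNF in collagen raised 2 and lowered 0, against 3.27% and 3.10% of all genes. These were Nrp2, a neuropilin co-receptor (0.65 ± 0.10, adjusted p = 0.00220), and Furin, a proprotein convertase (0.29 ± 0.07, adjusted p = 0.0257, kept in 15 of 21 alternatives). In fibrin TNF raised 0 and lowered 0, against 1.65% and 1.47%. Untreated fibrin against untreated collagen gave 1 higher, the phosphatase gene Ptpn2 (0.26), and 2 lower, the convertase Pcsk6 (-0.43) and Nrp1 (-0.39), kept in 15, 20 and 13 of 21 alternatives, against 5.35% and 5.19% of all genes. With TNF, Nrp1 was lower in fibrin (-0.38, adjusted p = 0.0494), a call kept in 7 of 21 alternatives.

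Fgf2 and its receptor Fgfr1 were the steadiest genes of the set. Fgf2 lay at 8.23, 8.10 and 8.25 in collagen control, 8.30, 8.32 and 8.28 in collagen TNF, 8.35, 8.43 and 8.40 in fibrin control, and 8.37, 8.38 and 8.21 in fibrin TNF. The largest difference, between the untreated gels, was 0.20 ± 0.07 (adjusted p = 0.0881) and did not pass. It was called after median centring (0.26, adjusted p = 0.0313) and when the dimmest 33.3% of genes were dropped (adjusted p = 0.0457). TNF differences were 0.11 ± 0.07 in collagen and -0.07 ± 0.07 in fibrin (95% interval -0.22 to 0.08).

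Fgfr1 lay between 10.22 and 10.51 on all 12 arrays. It differed with TNF by 0.08 ± 0.06 in collagen (adjusted p = 0.558) and by 0.11 ± 0.06 in fibrin (95% interval -0.02 to 0.25, adjusted p = 0.438). Between gels it differed by 0.07 without TNF and 0.10 with TNF. It passed in 0 of the 5 comparisons under any alternative, and for its TNF effects the interval of the difference between matrices ran from -0.16 to 0.23.

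Around FGF2, the binding protein gene Ptx3 stood out among 22 genes of other FGF family members and FGF binding proteins. Not all of these family members, Fgf12 among them, are classical receptor ligands. Ptx3 encodes pentraxin 3, a soluble pattern recognition protein that binds FGF2. It ranged from 8.31 to 8.63 in collagen control, 10.54 to 10.91 in collagen TNF, 9.89 to 9.94 in fibrin control and 10.76 to 11.12 in fibrin TNF. TNF raised it in collagen (2.20 ± 0.12, adjusted p = 2.44e-07) and in fibrin (1.06 ± 0.12, adjusted p = 0.000461), and the effect was smaller in fibrin (-1.14 ± 0.16, adjusted p = 0.00526). Without TNF, fibrin arrays already exceeded collagen arrays by 1.42 ± 0.12 (adjusted p = 4.81e-06).

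In the same list TNF in collagen raised 2 and lowered 1 (3.27% and 3.10% of all genes), Fgf9 (-0.47 ± 0.10, kept in 18 of 20 alternatives). In fibrin it raised 1 and lowered 0 (1.65% and 1.47%). Fgf23 was the other gene raised in collagen (0.73 ± 0.11), at a low signal of 3.96 to 5.03 over the collagen arrays. Untreated fibrin gave 2 higher and 2 lower, against 5.35% and 5.19% of all genes. Among the higher was Fgf7, a growth factor for epithelial cells (0.51 ± 0.12, adjusted p = 0.0195, kept in 17 of 21 alternatives). The lower were Fgf9 and Fgf12 (-0.50 and -0.41, the latter kept in 11 of 21). With TNF 0 were higher in fibrin and 1 lower, Fgf23 (-0.72), against 4.55% and 3.64%. For the difference of TNF effects 1 was higher and 1 lower, against 0.370% and 0.866%. The higher was Fgf9 (0.66, kept in 5 of 19 alternatives and lost with the replicate block at adjusted p = 0.0802), and the lower Ptx3.

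Of 18 other FGF receptors, heparan sulfate carriers and their enzymes, TNF in collagen raised 1 and lowered 2, against 3.27% and 3.10% of all genes. It raised the syndecan Sdc4 (0.66 ± 0.11, adjusted p = 0.00295), and lowered the heparanase gene Hpse (-0.86 ± 0.17) and Sdc2 (-0.24 ± 0.06, kept in 7 of 21 alternatives and lost with the replicate block at adjusted p = 0.0582). In fibrin it raised 1 and lowered 0, against 1.65% and 1.47%. The gene raised was the receptor Fgfr2 (0.51 ± 0.10, adjusted p = 0.0203, kept in 18 of 21 alternatives). With the replicate block Hpse (-0.51, adjusted p = 0.0408) and Sulf2 (-0.39, 0.0221) were called in fibrin. For the difference of TNF effects 0 passed, against 0.370% higher and 0.866% lower, and with the block Sdc4 did (-0.62, adjusted p = 0.0442). In untreated fibrin 2 were higher, Sdc4 (0.71) and the glypican Gpc4 (0.54), against 5.35%. There 2 were lower, Hpse (-0.85) and Gpc3 (-0.45, kept in 17 of 21 alternatives), against 5.19%. With TNF, 1 was higher in fibrin, Fgfr2 (0.53), and 0 were lower, against 4.55% and 3.64%. Of the Fgfr1 relatives, Fgfr2 thus passed with TNF in fibrin, where Fgfr1 did not.

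Counted over the 10 growth factor and receptor genes, TNF in collagen gave 2 higher (Hgf, Pdgfra) and 1 lower (Pdgfrb), against 3.27% and 3.10% of all genes. TNF in fibrin gave 0 higher and 0 lower in the limma fit, against 1.65% and 1.47%, while 2 of the 10 had an unadjusted p under 0.05 (15.3% of all genes). Fibrin against collagen gave 1 higher (Hgf) and 1 lower (Pdgfrb) without TNF, against 5.35% and 5.19%. With TNF it gave 1 higher (Hgf) and 3 lower (Met, Pdgfc, Pdgfra), against 4.55% and 3.64%. The median log2 difference of the 10 genes was 0.09, -0.07, 0.12 and -0.22 in these comparisons, against 0.00, 0.01, -0.01 and 0.00 over all genes.

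Arrays that did not overlap were counted too. With TNF in collagen, 6 of the 10 genes were higher and 2 lower without overlap, against 12.7% and 13.8% of all genes. In fibrin 2 were higher and 1 lower, against 10.2% and 7.97%. Between untreated gels 4 were higher and 3 lower in fibrin, against 14.3% and 15.0%, and with TNF 3 were higher and 4 lower, against 14.8% and 12.9%.

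**Figure D3:**
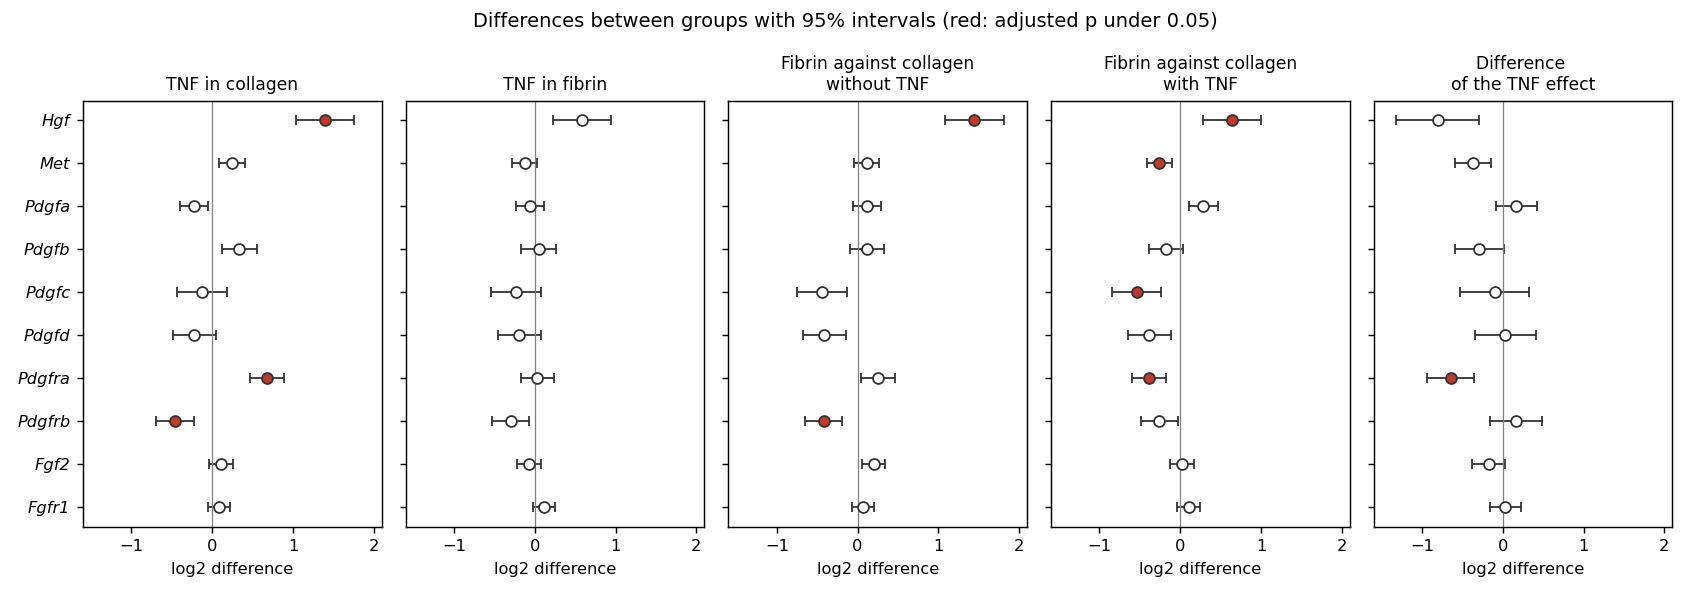
Log2 differences of the 10 genes in 5 comparisons (points) with 95% intervals of the limma fit (bars); red points passed at an adjusted p under 0.05. Hgf differs by about the same amount with TNF in collagen and between untreated fibrin and collagen (1.39 and 1.45). In this fit, which has no replicate block, Pdgfra is the red point for the difference of the TNF effect.

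Several genes that receptor tyrosine kinases are known to induce through the ERK kinases had more RNA in untreated fibrin. Signalling by the receptors was not measured. Of 24 adaptor and effector genes, TNF raised 0 and lowered 0 in either gel in the limma fit, against 3.27% and 3.10% of all genes in collagen and 1.65% and 1.47% in fibrin. With the replicate block Pik3r1 was called in fibrin (-0.25, adjusted p = 0.0494). In untreated fibrin 1 was higher and 0 lower, against 5.35% and 5.19%. The gene was the transcription factor gene Stat3 (0.32 ± 0.07, adjusted p = 0.0113, kept in 19 of 21 alternatives). Of 23 ERK feedback genes and targets, 7 were higher and 0 lower in untreated fibrin, against 5.35% and 5.19% of all genes. The leading ones were Phlda1 (1.23 ± 0.13, adjusted p = 5.37e-05), the stress-induced gene Ier3 (0.87 ± 0.10), the immediate early gene Egr1 (0.79 ± 0.12) and Dusp6, a phosphatase that turns ERK off (0.42 ± 0.07). Each of these 4 calls was kept in 21 of 21 alternatives.

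With TNF in collagen 4 of these 23 genes rose and 1 fell, against 3.27% and 3.10% of all genes. Phlda1 rose by 0.91 ± 0.13, Ier3 by 0.68 ± 0.10, Errfi1, an inhibitor of the EGF receptor family, by 0.46 ± 0.10 (kept in 17 of 21 alternatives) and Dusp6 by 0.30 ± 0.07 (kept in 14 of 21 alternatives), while the transcription factor gene Etv1 fell (-0.38 ± 0.09, kept in 17). In fibrin TNF raised 2 and lowered 0, against 1.65% and 1.47%. The 2 were Ier3 (0.74) and Fosl1 (0.51, kept in 16 of 21 alternatives), and with the replicate block Spred1 (0.30, adjusted p = 0.0447) was called too. With TNF in both gels 3 were higher in fibrin and 0 lower, against 4.55% and 3.64%. These were Ier3 (0.93), Fosl1 (0.75) and Phlda1 (0.71). The median of the list was 0.14, 0.03, 0.13 and 0.05 in the order TNF in collagen, TNF in fibrin, untreated gels and gels with TNF. The sprouty gene Spry1 differed by -0.22 between untreated gels and Egr1 by 0.42 with TNF in collagen, and neither passed (adjusted p = 0.135 and 0.0521).

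**Figure D4:**
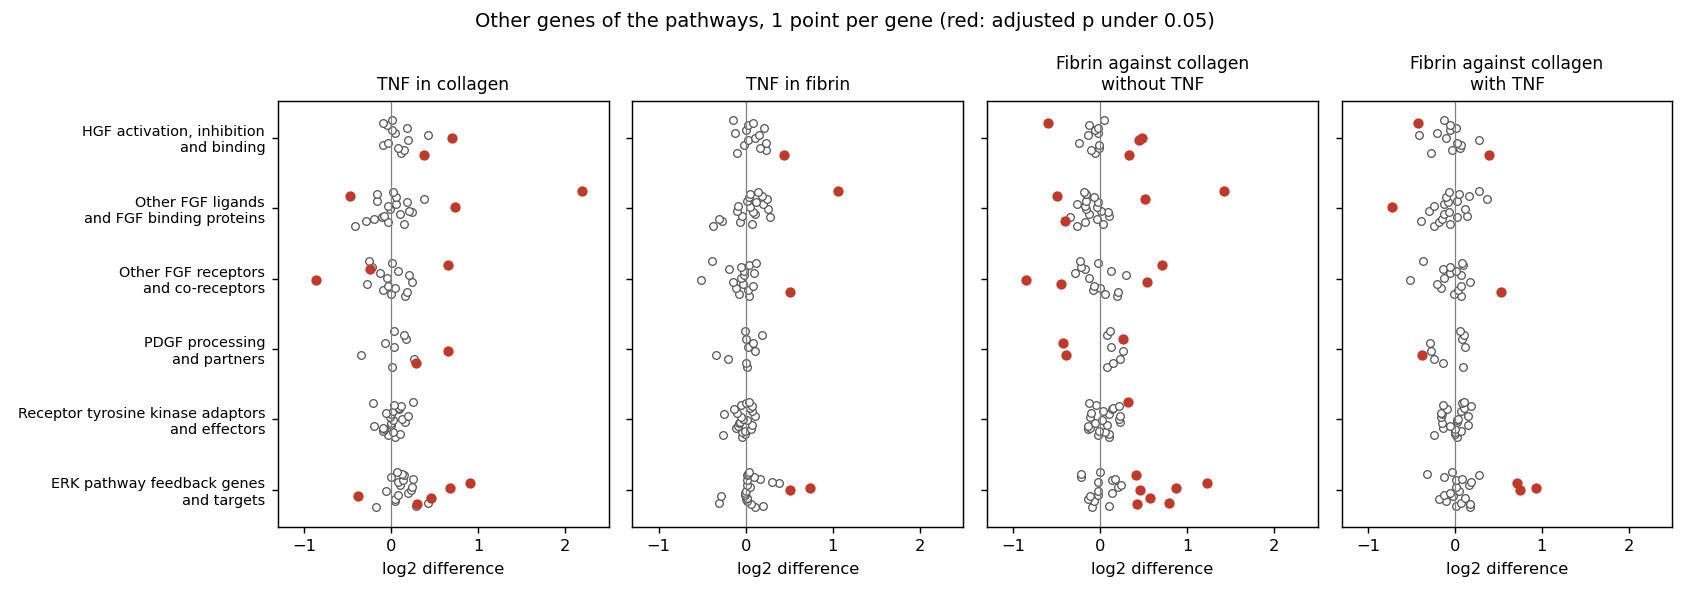
Log2 differences of the other genes of the HGF, PDGF and FGF pathways, 1 point per gene, in 4 comparisons; red points passed at an adjusted p under 0.05. Ptx3, at 2.20 with TNF in collagen, is the point farthest from 0, and 7 red points lie to the right among the ERK feedback genes for untreated fibrin.

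The genes whose centred profiles over the 12 arrays lay closest to each of the 5 called genes were found by the root mean square difference. Genes whose symbol is only a locus number were skipped. Many of the rest lay nearer than an unchanging profile would: 6286 for Hgf, 969 for Met, 4740 for Pdgfc, 3181 for Pdgfra and 4455 for Pdgfrb. Closest to Hgf were Cyp1b1, a cytochrome P450 (0.18), and the anion transporter gene Slc17a3 (0.21), against 0.77 for the deviation of Hgf from its own mean. Cyp1b1 averaged 10.90 ± 0.15, 12.36 ± 0.06, 12.38 ± 0.23 and 12.77 ± 0.04 in collagen without and with TNF and then in fibrin without and with TNF. Closest to Pdgfra were Ntrk2, the receptor of brain-derived neurotrophic factor (0.09), and Nrp2 (0.10), against 0.26, and both were highest in collagen TNF (8.49 ± 0.03 and 9.57 ± 0.09). Closest to Pdgfrb were Cbr4 and Sord (0.07 each, against 0.28), both highest in collagen control, and closest to Pdgfc were Sfrp1 (0.13) and Fgf12 (0.14, against 0.31). For Met, which varied little (0.12), they were Pgm1 (0.05) and Kpnb1 (0.07).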

How the data were processed

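Per the labels' protocols, 200 ng of total RNA per sample was prepared with Affymetrix whole-transcript sense labelling. The authors deposited 1 summarised log2 value per probe set and array, the log2 scale being inferred from the range of 1.44 to 14.07. The method of probe summarisation and normalization was not given in the sources used here. Limma is named, with no version, per the submitters' processing notes. Array medians ran from 5.94 to 5.98 in collagen and 5.89 to 5.93 in fibrin. With no scan date or slide at hand no batch could be tested, and the number of arrays limits the precision.

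Of 27342 probe sets, 15097 name 1 gene in the platform annotation, 323 name several and 11922 are unnamed here. Gene identifiers of 15067 were found in RefSeq's GRCr8 table. The probe set of highest mean stood for each of 14324 genes. Symbols of the lists that were not found are not analysed here.

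Groups and replicate numbers came from the sample titles, which call the replicates biological; a tissue label naming collagen for the fibrin samples was not used. No label ties a replicate to an animal, and the p-values cover only the spread among these samples, which may be technical. Differences were fitted across all genes with limma 3.58.1 in R 4.3.3 (lmFit, eBayes, 12 arrays, 1 mean per group, two-sided, Benjamini-Hochberg within each comparison, threshold 0.05). The script was tested on simulated data.

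The 10 genes, the gene lists and the tests were chosen with earlier results of these data known. From each list the text names up to 4 called genes of smallest adjusted p in each direction and up to 2 others, all marker genes may be named, and the 2 nearest profiles are given for each called gene. Replicate numbers were checked for pairing from deviations from group means: same-numbered arrays correlated across genes at 0.13, 0.14 and 0.14 in collagen and 0.25, 0.14 and 0.16 in fibrin, so the numbers were taken to pair TNF with control samples within a matrix. Alternatives were quantile normalization, median centring, leaving out the 33.3% of genes of lowest mean, a trended and robust prior, array weights, only the groups compared, other handling of probe sets, a replicate block and leaving out each array.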

Additional observations from a re-analysis of the deposited data

Results flagged for a closer look

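The TNF effect on Pdgfra differed between the gels by -0.65 (log2, fibrin minus collagen), and a test of the difference itself (limma interaction, adjusted p = 0.0377) brought it here. That call held in 10 of 20 alternatives, with adjusted p up to 0.102. All 3 collagen pairs were higher with TNF, by 0.55 to 0.75, and the 3 fibrin pairs differed by -0.01, 0.02 and 0.08. Fibrin control arrays lay above every collagen control array, at 11.16 to 11.37 against 10.91 to 11.10.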

How the results depend on the processing

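The calls of Hgf and Pdgfra with TNF in collagen and of Hgf between untreated gels were kept in 21 of 21 alternatives each. Over all alternatives 47 values lost a call and 33 gained one, and no called value changed sign. The number of the 10 genes called with TNF in collagen was 3, against 5 without the 33.3% of genes of lowest mean and 5 with array weights, and 2 to 4 with an array left out. With TNF in fibrin it was 0, against 1 with the replicate block within each matrix (Hgf), and 0 with any array left out. Between untreated gels it was 2, against 5 without the genes of lowest mean, 4 with a trended and robust prior, 1 with only the groups compared, 4 with the replicate block across matrices, and 1 to 4 with an array left out. With TNF in both gels it was 4, against 2 with only the groups compared, 1 with all probe sets tested, 7 with the replicate block across matrices, and 0 to 4 with an array left out. In the test of the matrices' TNF effects against each other it was 1, against 0 with all probe sets tested, 2 with the replicate block within each matrix, and 0 to 1 with an array left out. Only the larger shifts of these counts are listed. Among those left out, Pdgfd was called between untreated gels after quantile normalization and Fgf2 after median centring. With TNF in both gels, Pdgfa and Pdgfd were called without the genes of lowest mean, and Pdgfc was lost after quantile normalization. The cause of the shifts was not tested.

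Replicate numbers share no stated origin between matrices, where same-numbered arrays correlated at 0.03 to 0.23 and not every array correlated best with its own number. Among the 10 genes, the block within each matrix changed no call other than those of Hgf. Uncalled values near 0 changed sign as follows. With an array left out, the TNF difference in fibrin ran from -0.034 to 0.12 for Pdgfra, from -0.019 to 0.089 for Pdgfb and from -0.13 to 0.0074 for Pdgfa. Between gels with TNF, Fgf2 was -0.025 after quantile normalization and ran from -0.011 to 0.074 with an array left out. For the difference of TNF effects Pdgfd was -0.0023 with array weights and ran from -0.092 to 0.12, Fgfr1 from -0.0055 to 0.067 and Pdgfc from -0.23 to 0.044 with an array left out.

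Median centring moved the difference between untreated gels by 0.06 (log2) for all genes. The share of all genes called ranged over the alternatives from 3.45% to 12.1% with TNF in collagen and from 1.36% to 6.18% in fibrin. It ranged from 7.26% to 18.9% between untreated gels, from 4.22% to 15.2% with TNF and from 0.582% to 3.08% for the difference of TNF effects.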
